A study of Danio rerio with 9 samples.

Results

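The genes described here encode the subunits, assembly factors and inhibitors of the mitochondrial respiratory chain, taken from arrays of zebrafish embryonic eyes. A gene was taken when its symbol started with nduf (complex I), sdh (complex II), uqcr (complex III), cox followed by a digit (complex IV) or atp5 (complex V). Symbols were matched in lower case, so COX1, which is encoded in mitochondrial DNA and written in capitals, was not taken and is given apart. Each gene was represented by its brightest probe set. The rule found 90 genes of 8793 named on the array: 39 of complex I, 7 of complex II, 7 of complex III, 19 of complex IV and 18 of complex V. Of these 90, 74 encode subunits, 14 encode assembly factors and 2 encode inhibitors of the ATP synthase. A filter on dim probe sets kept 89 of the 90. The gene left out was ndufa4b, whose signals ran from 9.82 to 46.9 with ethanol and from 12.9 to 74.3 in controls.

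The respiratory chain sits in the inner mitochondrial membrane and passes electrons from nutrients to oxygen. Complex I takes electrons from NADH and complex II takes them from succinate, an intermediate of the tricarboxylic acid cycle. Both hand them to coenzyme Q, and complex III moves them on to cytochrome c. Complex IV then reduces oxygen to water. Complexes I, III and IV pump protons, and complex V lets the protons flow back to make ATP. Most subunits are encoded in the nucleus and imported, a few come from mitochondrial DNA, and assembly factors help to build the complexes without staying in them. The developing retina and the photoreceptors that it forms are known for a high demand for energy.

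Ethanol eyes at 27, 30, 36 and 48 hours post fertilization (hpf) were measured on 1 array each, as were control eyes at the same 4 stages and pretreatment eyes at 24 hpf, for 9 arrays in all. Total RNA came from dissected eye tissue of embryos kept at 28.5 °C, and whether eyes were pooled is not given in the sources used here, nor are the strain and the dose and timing of ethanol. The series title names Heat Shock Factor 1, and no array is labelled with a change in that gene. The values are MAS5 signals, a summary of array brightness, and comparisons below are differences of log2(signal + 5), where the added 5 understates the changes of dim genes.

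Titles and source names gave the same group for every array, but the treatment characteristic contradicted them for 3 arrays. It listed no treatment for ethanol eyes at 30 and 36 hpf, and listed ethanol for control eyes at 36 hpf. Groups follow the titles, and values under the other reading are given where they matter. All 11 measured eye markers were kept, with summed signals of 3028 to 4765 in ethanol arrays and 3063 to 4177 in control arrays. Of 9 lens genes listed, 2 were measured and both were kept, with sums of 2731, 3059, 4499 and 4901 in ethanol arrays from 27 to 48 hpf. In control arrays the lens sums were 2711, 3798, 3513 and 4883, so ethanol was lower at 30 hpf and higher at 36 hpf. Markers of pigment cells and of tissues other than the eye differed between the groups, for some of them in opposite directions at different stages. Summed signals of 11 measured muscle genes, 5 of them kept, were 749, 808, 701 and 910 in ethanol arrays from 27 to 48 hpf and 641, 593, 535 and 3571 in control arrays, so ethanol was higher at the first 3 stages and lower at 48 hpf. For 3 measured pigment genes, 2 of them kept, the sums were 1520.1, 1497, 1884 and 2046 with ethanol and 1682, 1873, 2188 and 2703 in controls, lower with ethanol at every stage, and the 2 kept genes had a median ethanol difference of -0.24. Summed signals of 7 yolk and liver genes ran from 523 to 2792 in ethanol arrays and from 222 to 1305 in controls, and those of 8 measured blood genes from 3737 to 4707 with ethanol and from 2919 to 3729 in controls. For 15 measured genes of brain regions outside the eye the sums were 1097, 1714, 1238 and 1622 with ethanol from 27 to 48 hpf. In controls they were 1391, 659, 692 and 712, so ethanol was lower at 27 hpf and higher at the later stages. The part of these tissues in the results was not tested. In whole tissue, fewer cells of a type and less RNA per cell cannot be told apart.

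The first comparison asked whether ethanol eyes differed from control eyes of the same stage. Respiratory chain genes lay below their controls by a small amount and almost without exception: 87 of 89 had a mean difference below 0, where 44.4% of all 9301 probe sets tested did. The median over the 89 genes was -0.21, with quartiles of -0.30 and -0.13. The median over all probe sets was 0.04. With ethanol, 43 of the 89 were lower at all 4 stages, against 14.4% of all probe sets, and 0 were higher at all 4. No single gene passed the test. In limma's fit, with stage as a block, 0 of 89 had an adjusted p under 0.05, beside 2.25% of all probe sets, and 21 had an unadjusted p under 0.05, beside 23.9% of all probe sets, a share close to that of the members. The test uses 4 pairs of single arrays, so its p-values measure only how the ethanol difference varies between the stages of these samples. A difference that changes with stage counts there as spread. Among the 89 genes the exceptions to the direction were cox4i2 (0.24) and ndufaf4 (0.01). COX1, which is not among them, is given below.

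**Figure D1:**
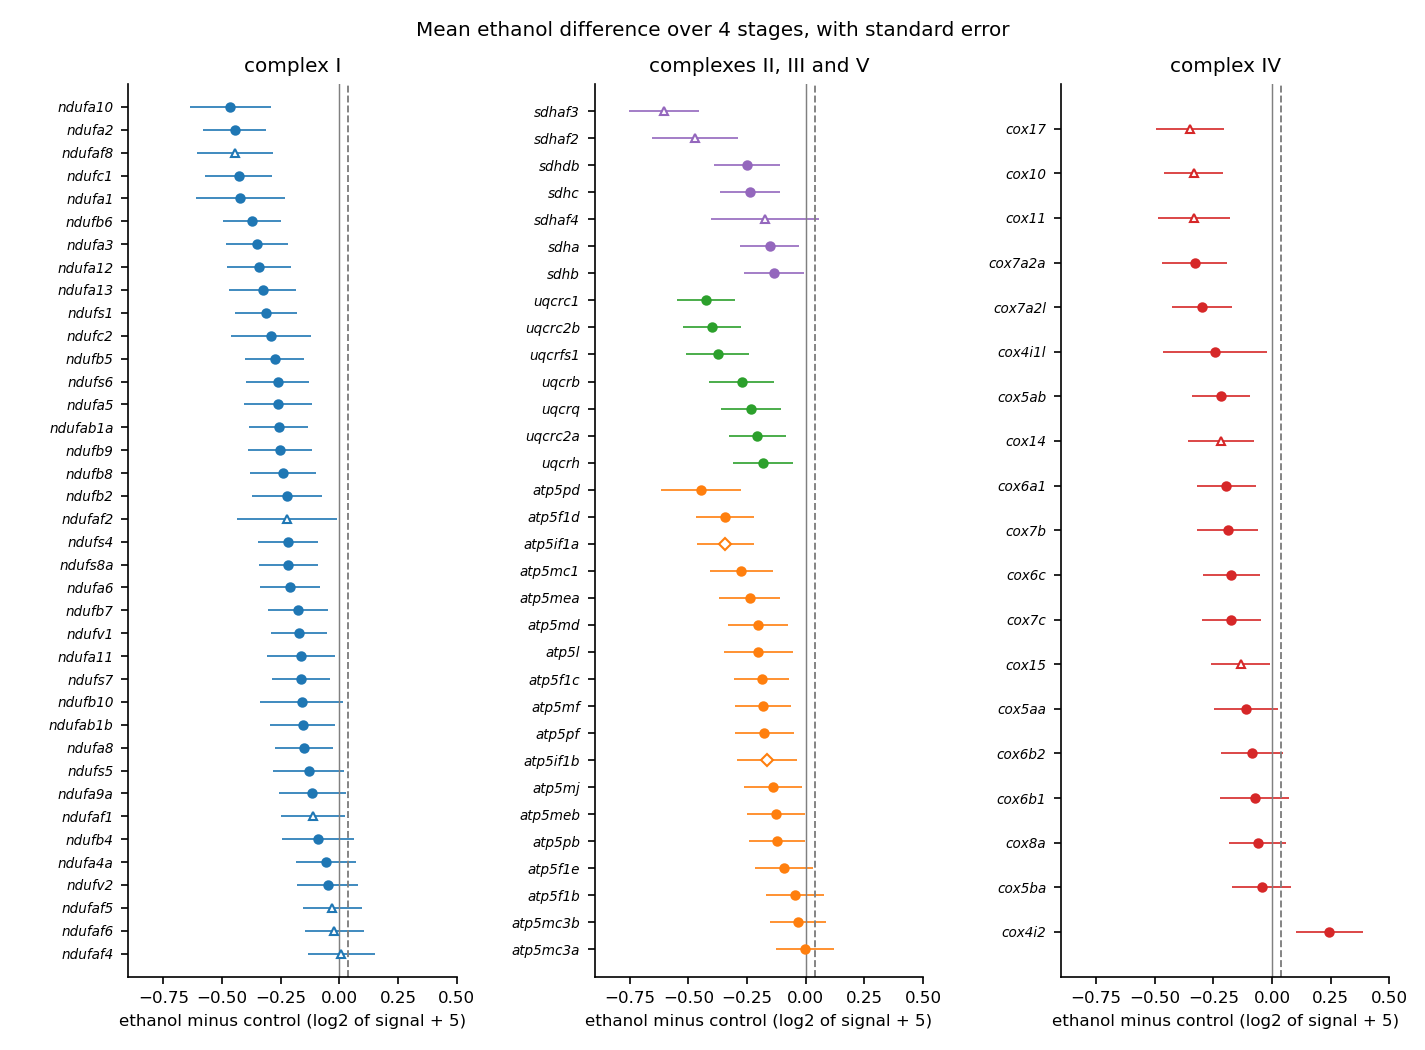
The x axis gives the mean over 4 stages of ethanol minus control on the log2(signal + 5) scale, with bars for the standard error, and each row is 1 of the 89 kept genes, coloured by complex (purple for II, green for III, orange for V). Filled circles are subunits, open triangles assembly factors and open diamonds inhibitors, and the dashed line is the median of all probe sets at 0.04. All but cox4i2 and ndufaf4 lie left of 0.

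The difference was not the same at every stage. With 1 array against 1, the median of the 89 genes was -0.08, -0.24, -0.12 and -0.34 from 27 to 48 hpf. The medians of all probe sets stayed near 0, at 0.05, 0.07, 0.02 and -0.00 in the same order. The ethanol array was lower for 67, 80, 62 and 87 genes at these stages. Over all probe sets the share lower was 44.4%, 43.4%, 48.4% and 50.4% in the same order. The median signal over all probe sets was below that of the 89 genes on every array. Brighter than both were 70 genes of the cytosolic ribosome, with medians of -0.01, -0.20, 0.33 and 0.18 from 27 to 48 hpf. The ethanol array was lower for 38, 68, 1 and 5 of them. Lower values at 30 hpf were thus not particular to the respiratory chain. The part of brightness was not tested. At 48 hpf 5 members (5.62%) were at least 2-fold lower in the ethanol array, where 2.15% of all probe sets were. They were the assembly factors ndufaf2, sdhaf2, sdhaf3 and sdhaf4 and the complex V subunit atp5pd, of which ndufaf2 was named after its values were seen.

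**Figure D2:**
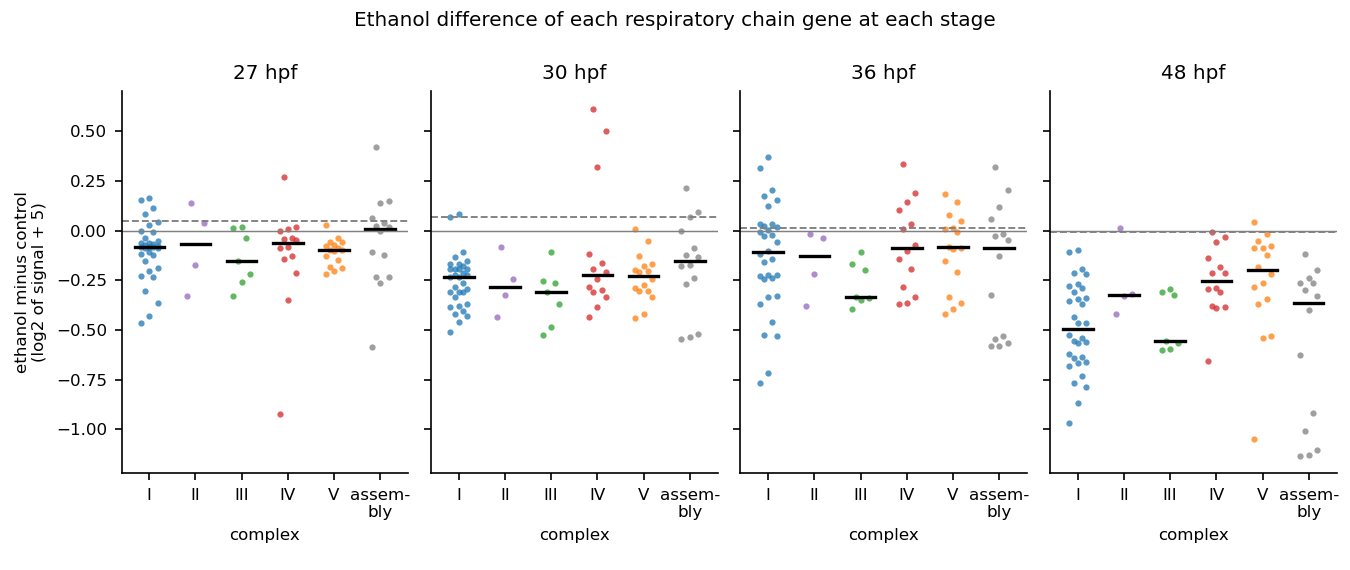
Each point is 1 gene and gives ethanol minus control at 1 stage, from 1 array each, on the log2(signal + 5) scale, with genes grouped by complex and the 2 ATP synthase inhibitors not shown. Black bars are group medians and the dashed line is the median of all probe sets at that stage. At 48 hpf the bars of complexes I and III reach -0.49 and -0.56.

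Complex I, the NADH dehydrogenase, had 32 kept subunits, and all 32 lay below 0 with a median of -0.23. Their stage medians were -0.08, -0.23, -0.11 and -0.49 from 27 to 48 hpf, and at 48 hpf all 32 were lower in the ethanol array. For ndufa2, an accessory subunit, signals in ethanol eyes were 832, 750.1, 757 and 607 at 27, 30, 36 and 48 hpf, against 1029, 1069, 896 and 1008 in control eyes and 943 at 24 hpf. Every ethanol value was below every other array of this gene. The mean difference was -0.45 ± 0.13 (SE, 4 pairs, adjusted p = 0.1003), the smallest adjusted p among complex I genes.

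For ndufa10, an accessory subunit and the complex I gene with the largest mean difference, ethanol eyes gave 739, 592, 427 and 393 from 27 to 48 hpf, against 683, 793, 730.3 and 680.4 in controls and 795 at 24 hpf. The ethanol array was higher at 27 hpf and lower at the other stages, and the mean difference was -0.46 ± 0.17 (adjusted p = 0.150). Signals of ndufa1, an accessory subunit of the membrane arm, were 184, 222, 149 and 96.7 in ethanol eyes and 194, 211, 247 and 194 in control eyes. This gene was lower with ethanol at 36 and 48 hpf (-0.72 and -0.97) and near its control before. By contrast, the bright probe set of ndufc2, a membrane arm subunit, stood at 1418, 1310 and 1376 with ethanol at 27, 30 and 36 hpf and at 862 at 48 hpf, against 1416, 1622, 1370.1 and 1578 in controls. Its difference lay mainly in the 48 hpf pair, at -0.87.

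The acyl carrier protein of mitochondria, which is also a complex I subunit, has 2 genes on the array. For ndufab1a the mean difference was -0.26 ± 0.13 (adjusted p = 0.250), and its 2 other probe sets gave -0.35 and -0.36. For ndufab1b it was -0.16 ± 0.14 (adjusted p = 0.529). The gene ndufa4a, placed with complex I by its symbol although the mammalian protein is now counted with complex IV, stayed close to its control: ethanol eyes had 1329.9, 1265, 1378 and 1311 from 27 to 48 hpf, against 1415, 1464, 1220.2 and 1403 in control eyes, a mean difference of -0.06 ± 0.13 (adjusted p = 0.825).

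The 6 assembly factors of complex I had a median of -0.07. Lowest was ndufaf8, which acts on the iron-sulfur subunit NDUFS7 in human cells. Its signals were 147, 122, 76.6 and 72.8 in ethanol eyes and 159, 138, 117 and 142 in control eyes, so the gap widened at 36 and 48 hpf, and the mean difference was -0.45 ± 0.16 (adjusted p = 0.145). In contrast, ndufaf4 lay on both sides of its control, with 261, 228, 232 and 146 in ethanol eyes and 235, 258, 184 and 176 in control eyes.

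Complex II, succinate dehydrogenase, had all 4 measured subunits below 0, with a median of -0.20 and stage medians of -0.07, -0.28, -0.13 and -0.32 from 27 to 48 hpf. The mean differences were -0.15 ± 0.13 for sdha, the flavoprotein that oxidizes succinate, -0.14 ± 0.13 for sdhb, the iron-sulfur subunit, -0.24 ± 0.13 for sdhc and -0.25 ± 0.14 for sdhdb, the last 2 being membrane anchors. Their adjusted p ran from 0.295 to 0.561. At 48 hpf sdha was the exception, with 282.2 in the ethanol array and 279.7 in the control array.

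The assembly factors of complex II held the largest difference of the chain. In mammals and yeast SDHAF3 acts on the iron-sulfur subunit. For sdhaf3, ethanol eyes had 56.7, 54.5, 43.6 and 24.6 from 27 to 48 hpf, against 87.5, 65.3, 67.7 and 54.6 in control eyes and 76.02 at 24 hpf. The ethanol array was lower at every stage, although the highest ethanol value passed the lowest control value, and the mean difference of -0.60 ± 0.15 had the smallest adjusted p of all 89 genes, 0.0669. SDHAF2 inserts the flavin cofactor into SDHA. Signals of sdhaf2 were 228, 165, 124 and 71.2 in ethanol eyes and 248, 238, 136 and 162 in control eyes, a mean difference of -0.47 ± 0.18 (adjusted p = 0.165). SDHAF4 binds flavinated SDHA and aids its joining with SDHB. For sdhaf4, ethanol eyes had 139, 126, 149.97 and 92.4 and control eyes 103, 120, 155 and 209. Its sign changed with stage, with differences of 0.42 at 27 hpf and -1.13 at 48 hpf. All 3 genes were dim beside the chain as a whole, below 249 on every array, where the median signal of the 89 genes ran from 565 to 777.

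Complex III, which passes electrons from coenzyme Q to cytochrome c, had the lowest subunit median of the 5 complexes, at -0.27, and all 7 subunits lay below 0. Stage medians were -0.15, -0.31, -0.33 and -0.56, and all 7 were lower in the ethanol arrays of 30, 36 and 48 hpf. Differences between the complexes were not tested. For uqcrc1, a core subunit, ethanol eyes gave 833, 717, 662 and 564 from 27 to 48 hpf, against 998, 1005, 872 and 833 in control eyes and 876 at 24 hpf. At each stage the ethanol array was lower, and across stages the groups met only in the highest ethanol and the lowest control value, both 833. The mean difference was -0.42 ± 0.12 (adjusted p = 0.0948).

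The other core subunit has 2 genes. For uqcrc2b ethanol eyes had 477, 433, 425 and 319 and control eyes 602, 561, 539 and 475, a mean difference of -0.40 ± 0.12 (adjusted p = 0.104), and for uqcrc2a the mean difference was -0.21 ± 0.12 (adjusted p = 0.333). For uqcrfs1, the Rieske iron-sulfur protein, signals were 703, 572, 576 and 421 with ethanol and 818, 826, 647 and 639 in controls, a mean difference of -0.38 ± 0.13 (adjusted p = 0.140). Its ethanol array was lower at all 4 stages. The hinge protein gene uqcrh stood at -0.18 ± 0.13 and uqcrb at -0.27 ± 0.14, with adjusted p of 0.4205 and 0.263.

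Complex IV, cytochrome c oxidase, had 13 of 14 nuclear subunits below 0 and a median of -0.17, with stage medians of -0.06, -0.22, -0.09 and -0.25. The lowest were cox7a2a, at -0.33 ± 0.14 (adjusted p = 0.188), and cox7a2l, at -0.30 ± 0.13 (adjusted p = 0.197), whose mammalian counterpart joins complexes III and IV into supercomplexes. For cox7a2a ethanol eyes had 1077, 972, 892 and 799, against 1144, 1194, 1085 and 1262 in control eyes, with a gap at every stage. For cox7a2l the gap was -0.35, -0.43 and -0.36 at the first 3 stages and closed to -0.06 at 48 hpf. The subunit pairs cox5aa and cox5ab stood at -0.11 and -0.22, and cox6b1 and cox6b2 at -0.07 and -0.08. cox5ba and cox8a were nearly level, at -0.04 and -0.06. Their adjusted p ran from 0.319 to 0.864.

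The 5 assembly factors of complex IV had a median of -0.33, and all 5 were lower in the ethanol arrays of 36 and 48 hpf. For cox17, a copper chaperone, ethanol eyes had 531, 422, 294 and 349, against 507, 618, 426 and 460.4 in control eyes, a mean difference of -0.35 ± 0.15 (adjusted p = 0.186). For cox10, which makes the precursor of heme A, ethanol eyes had 163, 131, 114 and 114, against 196, 159, 169 and 137 in control eyes, a mean difference of -0.33 ± 0.13 (adjusted p = 0.156). A second, dimmer probe set of cox10 gave -0.04. For cox11, which helps to deliver copper, the difference was -0.33 ± 0.15 (adjusted p = 0.228), with the ethanol array higher at 30 hpf.

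Complex V, the ATP synthase, had all 16 subunits below 0 with a median of -0.18, and its stage medians were -0.10, -0.23, -0.08 and -0.20. Subunits differed among themselves. Signals of atp5pd, the d subunit of the peripheral stalk, were 1365, 1264, 1037 and 679 in ethanol eyes and 1462, 1528, 1334 and 1409 in control eyes, so the gap widened with stage to -1.05 at 48 hpf. Its mean difference was -0.45 ± 0.17 (adjusted p = 0.162). Among those near 0 was atp5f1b, the catalytic beta subunit, with 2166, 2234, 2212 and 2464 in ethanol eyes against 2279, 2561, 2141 and 2388 in control eyes. The values overlapped and the mean difference was -0.04 ± 0.12 (adjusted p = 0.857).

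Among the other complex V genes, atp5f1d, the delta subunit of the central stalk, stood at -0.34 ± 0.12 (adjusted p = 0.139) and atp5pf, of the peripheral stalk, at -0.18 ± 0.12 (adjusted p = 0.421). The 3 genes for the c subunit, which forms the rotating ring, stood at -0.27 for atp5mc1, -0.00 for atp5mc3a and -0.03 for atp5mc3b, with adjusted p of 0.247, 0.996 and 0.894. The inhibitor gene atp5if1a, whose product keeps the enzyme from running backwards and breaking down ATP, had signals of 641, 508, 358 and 309 in ethanol eyes and 761, 681, 467 and 390 in control eyes. Its ethanol array was lower at all 4 stages, by -0.34 ± 0.12 on average (adjusted p = 0.136), and its paralog atp5if1b stood at -0.17 ± 0.13 (adjusted p = 0.462).

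The array also carried 3 probe sets of COX1, the catalytic subunit of complex IV that is encoded in mitochondrial DNA. The symbol rule was matched in lower case and so left out this symbol, which is written in capitals. On the brightest of the 3 probe sets, ethanol eyes had 3832, 3965, 4536 and 5412 from 27 to 48 hpf, against 3602, 4525, 3509 and 4693 in control eyes. The ethanol array was lower at 30 hpf and higher at the other stages. The mean differences were 0.08, 0.10 and 0.12 over the 3 probe sets (adjusted p of 0.641 to 0.757). They lay between 0.00 and 0.04 after quantile normalization and between -0.05 and -0.02 with each array centred on its median. The mean difference of COX1 was thus near 0 under each scaling, but it joins stages of opposite sign. On the brightest probe set the stage differences were 0.09, -0.19, 0.37 and 0.21 from 27 to 48 hpf, as deposited. The difference of COX1 from the nuclear genes was not tested.

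Reading the groups by the treatment characteristic instead of the titles made the median of the 89 genes -0.12, with 76 below 0. The median of all probe sets was then 0.01. In limma's fit 0 of the 89 genes were called (0 at an unadjusted p under 0.05). Of all 9301 probe sets 0 were called as well, so the lack of calls is not particular to the members. The stage at which both arrays are listed without treatment gave no contrast under that reading. Centring each array on its median moved all probe sets together, from a median of 0.04 to one of -0.10, and made the median of the 89 genes -0.34. Under that scaling 5 of the 89 genes were called, all lower, beside 5.48% of all probe sets, which is near the members' share: ndufa2, ndufc1 (named after its values were seen), sdhaf3, uqcrc1 and uqcrc2b.

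The second comparison followed the genes over development, as the slope on hpf over all 9 arrays with ethanol as a term, expressed as the change over 24 hours. It shares its control and ethanol arrays with the first comparison, so the values are set side by side only. As a whole the chain was nearly flat, with a median of -0.10, where the median of all probe sets was -0.04. Below 0 were 62 of the 89 genes, beside 4908 of all 9301 probe sets. In limma's fit 12 of 89 genes changed: 3 rose and 9 fell, beside 17.6% and 19.8% of all probe sets. At least 2-fold changes were found for all 3 that rose and for 2 that fell, beside 9.07% and 7.39% of all probe sets.

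**Figure D3:**
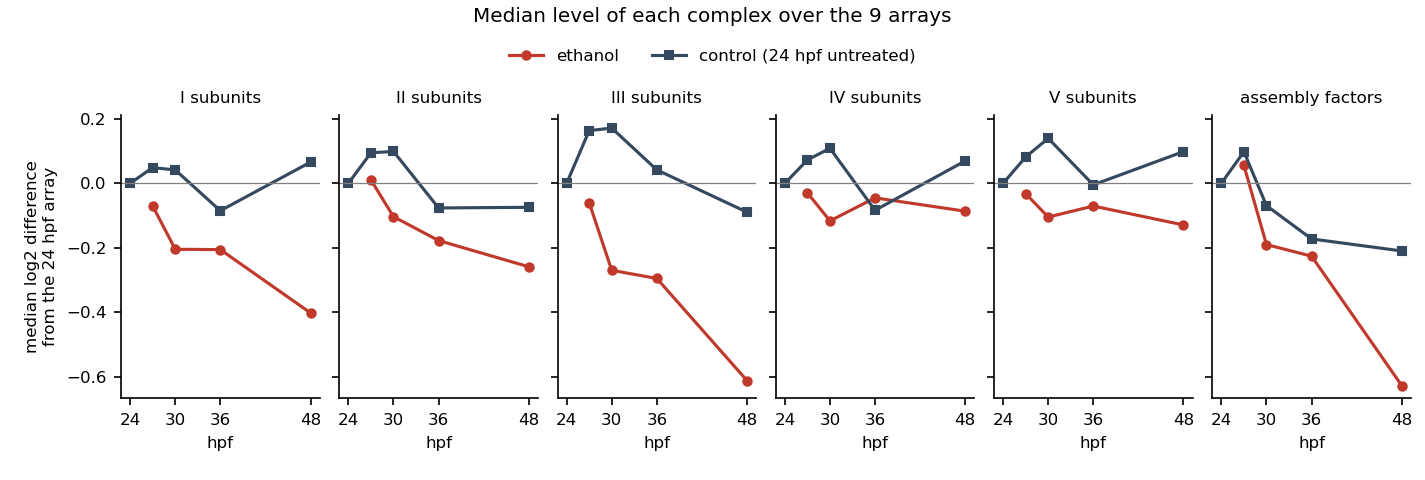
The y axis gives the median over the genes of a complex of the log2(signal + 5) difference from the 24 hpf array, and the x axis gives hpf. Red circles are ethanol arrays and dark squares are control arrays with the untreated 24 hpf array at 0. At 48 hpf complex III stands at -0.61 with ethanol and -0.09 in the control, and complex IV at -0.09 and 0.07.

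All 3 kept genes that rose encode subunits of complex IV. Without the filter on dim probe sets ndufa4b, of complex I by its symbol, was called higher as well. It had 10.5 at 24 hpf and, at 48 hpf, 46.9 in ethanol and 74.3 in control eyes. In that fit 4 of 90 genes were called higher, beside 2688 of 15502 probe sets. For cox4i1l, named for its likeness to subunit 4, ethanol eyes had 8.03, 36.8, 46.5 and 199.9 from 27 to 48 hpf, and untreated and control eyes had 17.1, 19.7, 22.3, 61.4 and 249 from 24 to 48 hpf. Low at the early stages and high at 48 hpf in both groups, it rose by 3.84 ± 0.31 on the log2 scale over 24 hours, 14.3-fold (adjusted p = 1.28e-05). The lowest values are near the floor of the array, where MAS5 signals are noisy.

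For cox4i2, the alternative subunit 4 that mammals express in lung and raise under low oxygen, ethanol eyes had 58.7, 91.9, 134 and 291, and untreated and control eyes had 55.9, 47.9, 63.3, 105 and 320.5. The gene rose in both groups, by 2.54 ± 0.20 or 5.82-fold over 24 hours (adjusted p = 1.13e-05). Its ethanol array was above the control at 27, 30 and 36 hpf and below it at 48 hpf. For cox6b1, a subunit on the side of the complex where cytochrome c binds, ethanol eyes had 696, 686, 674 and 1160 and untreated and control eyes had 683, 717, 548, 771 and 1513. Both groups were highest at 48 hpf, and the change was 1.07 ± 0.23, 2.1-fold (adjusted p = 0.00336). Without the 48 hpf arrays cox6b1 was no longer called (adjusted p = 0.88). Muscle markers also stood highest at 48 hpf in both groups, at 910 with ethanol and 3571 in the control. Their part in the rise of these 3 genes was not tested.

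The paralog cox6b2 showed no such rise: its change was -0.08 ± 0.15 (adjusted p = 0.723), with 1419.9, 1317, 1538 and 1264 in ethanol eyes and 1445, 1458, 1600.3, 1347 and 1464 in untreated and control eyes. Among other bright complex IV genes, cox5aa changed by 0.13, cox5ba by 0.01 and cox7b by 0.07, with adjusted p of 0.562, 0.970 and 0.743. The subunit gene cox5ab was called in the other direction and fell by 0.47 (adjusted p = 0.0381). cox6a1 stood at -0.36 ± 0.15 (adjusted p = 0.0745), cox7a2a at -0.13 and cox8a at -0.04.

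**Figure D4:**
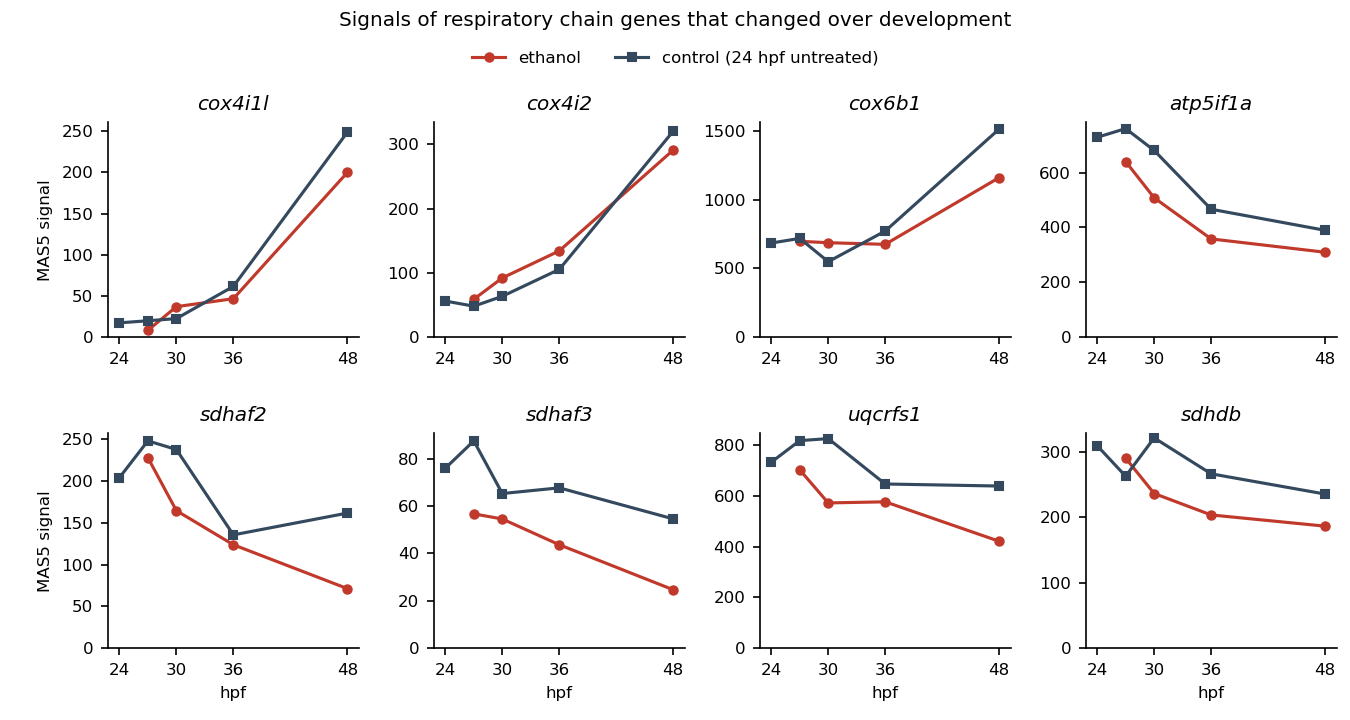
MAS5 signals of 8 genes called for a change over development, on linear axes that start at 0, against hpf. Red circles are ethanol arrays and dark squares are control arrays with the untreated 24 hpf array. The 3 genes that rose reach their highest signals at 48 hpf in both groups, and the others are lowest at 48 hpf with ethanol.

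Of the 9 genes that fell, atp5if1a and sdhaf2 fell at least 2-fold. Signals of atp5if1a at 24 hpf were 729 and its later values are given above: the ethanol series ended at 309 and the control series at 390. It fell by 1.07 ± 0.18 (adjusted p = 0.000794). Its paralog atp5if1b did not follow, at 0.06 ± 0.18 (adjusted p = 0.811), with 456, 393, 360.0 and 393 in ethanol eyes and 423, 477, 405, 399 and 523 in untreated and control eyes. The fall of atp5if1a from its 24 hpf signal is therefore seen with and without ethanol.

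The complex II factors sdhaf2 and sdhaf3 fell by 1.08 ± 0.27 (adjusted p = 0.0091) and 0.82 ± 0.19 (adjusted p = 0.00537). Complex I factor ndufaf4 fell by 0.66 (adjusted p = 0.0102). The other genes that fell were the subunit genes uqcrfs1 by 0.50 (adjusted p = 0.0345), cox5ab, sdhdb by 0.47 (adjusted p = 0.045), sdha by 0.48 (adjusted p = 0.0493) and ndufab1b by 0.49 (adjusted p = 0.043). The last of these was named after its values were seen. Assembly factors as a group had a median development change of -0.42, with 3 of 14 called lower and 0 higher. Subunits had a median of -0.07, with 5 of 73 called lower and 3 higher. Over all probe sets 19.8% were called lower, a share close to that of the assembly factors, and 17.6% higher. By complex the subunit medians were -0.11 for I, -0.28 for II, -0.35 for III, -0.01 for IV and -0.01 for V. In the arrays without ethanol alone they were 0.04 for I, -0.15 for II, -0.19 for III, 0.04 for IV and 0.04 for V, and -0.23 for assembly factors, so the sign turned for complexes I, IV and V and the other medians were smaller.

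Several of these calls were lost when the ethanol arrays or single stages were left out. Calls over all probe sets fell too, from 17.6% higher and 19.8% lower with all 9 arrays. Reliance on the arrays left out and the smaller number of arrays cannot be told apart. In the 5 arrays without ethanol alone, the median of the 89 genes was -0.00, and 5 of 89 were called, beside 21.8% of all probe sets: cox4i1l (3.71), cox4i2 (2.64) and cox6b1 (1.21) higher, atp5if1a lower by -1.03, and sdhaf4, which stood 0.81 higher at 48 hpf than at 24 hpf. There sdhaf2 stood at -0.60 with an adjusted p of 0.216. Leaving out the 27 hpf arrays ended the call of sdhaf2 (adjusted p = 0.0597) and left 5 of the 89 genes called, beside 26.1% of all probe sets. Leaving out the 48 hpf arrays also left 5 called, beside 14% of all probe sets, with sdhaf3 at an adjusted p of 0.251. With arrays centred on their median 29 of 89 were called, beside 42% of all probe sets, and under the treatment characteristic 6 were, beside 27.8%.

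The divergence of the groups with stage was tested as the product of hpf and ethanol over all 9 arrays. The untreated array at 24 hpf has no ethanol partner and bears on the control slope alone. The estimate was below 0, meaning a difference that grew more negative with stage, for 75 of 89 genes, where 55.5% of all probe sets were below 0. The median was -0.28 over 24 hours, beside -0.07 over all probe sets. No gene passed: 0 of 89 had an adjusted p under 0.05 in limma's fit, beside 0.118% of all probe sets, and 9 had an unadjusted p under 0.05, beside 12.7% of all probe sets. Without the 48 hpf arrays 54 of 89 were below 0, beside 52.1% of all probe sets, with a median of -0.21, beside -0.04. Groups differed in this. Subunit medians moved to -0.05 from -0.31 for complex I, to -0.00 from -0.19 for IV and to -0.11 from -0.13 for V. They became more negative for complexes II, at -0.51 in place of -0.26, and III, at -0.72 in place of -0.39. The median of assembly factors did too, at -0.59 in place of -0.47. Measured stage medians at 27, 30 and 36 hpf were -0.07, -0.28 and -0.13 for complex II and -0.15, -0.31 and -0.33 for III. For assembly factors they were 0.01, -0.15 and -0.09. Without the 24 hpf array the median interaction estimate of the 89 genes was -0.26. Subunit medians were then -0.38 for complex I, -0.25 for II, -0.26 for III, -0.12 for IV and -0.03 for V, and assembly factors stood at -0.31. With arrays centred on their median, 66 of 89 were below 0 with a median of -0.16, beside 45.9% of all probe sets. The largest estimates were -1.55 ± 0.36 for sdhaf4 (adjusted p = 0.121), -1.29 ± 0.35 for ndufaf2, a complex I assembly factor (adjusted p = 0.161), -1.15 ± 0.44 for sdhaf2 (adjusted p = 0.316), -1.14 ± 0.37 for ndufa1 (adjusted p = 0.220) and -1.12 ± 0.28 for atp5pd (adjusted p = 0.148). For ndufaf2 ethanol eyes had 183, 172, 157 and 93.4 and control eyes 181, 147, 159 and 207, so the ethanol array was clearly lower at 48 hpf and at or above its control at 27 and 30 hpf.

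Measured from the 24 hpf array, the ethanol medians of the 89 genes were -0.04, -0.16, -0.19 and -0.32 from 27 to 48 hpf, and the control medians were 0.08, 0.09, -0.08 and 0.04. Complex I stood at -0.40 in the 48 hpf ethanol array and 0.07 in the control, complex II at -0.26 and -0.07, and complex V at -0.13 and 0.10. Assembly factors stood at -0.63 with ethanol and -0.21 in the control, so they were below their 24 hpf level in both groups.

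Of the 7 genes with more than 1 probe set, 2 further ones are named here after their values were seen. The pair for ndufv2, the complex I subunit that holds an iron-sulfur cluster beside the flavin site, gave ethanol differences of -0.05 and -0.16 and opposite signs at 27, 30 and 36 hpf. For ndufaf1, a complex I assembly factor, the dimmer probe set was called lower over development (-0.56, adjusted p = 0.0372) and the brighter was not (-0.44, adjusted p = 0.103).

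Other mitochondrial genes were read from the same fits. The shares of all probe sets are the background of each list below. With ethanol 44.4% lay below 0, 2.25% were called in either direction and 23.9% had an unadjusted p under 0.05. In the mitochondrial ribosome, which translates the subunits encoded in mitochondrial DNA, all 58 kept genes lay below 0 with ethanol, with a median of -0.37. There 4 were called lower and 0 higher: mrps28 (-0.86, adjusted p = 0.0262), mrpl12 (-0.82, adjusted p = 0.0414), mrpl1 (-0.82, adjusted p = 0.0451) and mrps18a (-0.59, adjusted p = 0.0484). Over development 33 of the 58 fell and 0 rose, beside 19.8% and 17.6% of all probe sets, with a median of -0.54.

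Genes of the tricarboxylic acid cycle and pyruvate dehydrogenase, which supply the electrons, had a median ethanol difference of -0.16, with 13 of 17 below 0 and 0 called (2 at an unadjusted p under 0.05). Over development their median was -0.22, and 1 of the 17 was called lower, beside 19.8% of all probe sets. This was dlst, a subunit of the 2-oxoglutarate dehydrogenase complex, which fell by 0.52 (adjusted p = 0.0226). Of 13 genes for electron carriers and coenzyme Q, 10 lay below 0 with ethanol, with a median of -0.24 and 0 called (6 at an unadjusted p under 0.05). Among these was cyc1, cytochrome c1 of complex III, at -0.17, and cycsb, for cytochrome c, at -0.35. The other 3 of the 13 lay above 0, and the list ran from -0.48 to 0.74, so its largest difference was a rise. With ethanol 6 of the 13 were lower at all 4 stages and 1 was higher at all 4. Over development 2 of the 13 rose and 5 fell, beside 17.6% and 19.8% of all probe sets. Those that rose were coq2 of coenzyme Q synthesis, by 1.51 (adjusted p = 0.000357), and sqor, which feeds electrons from sulfide into coenzyme Q, by 1.23 (adjusted p = 0.00311). The largest of the 5 falls was that of dhodh, a pyrimidine synthesis enzyme that reduces coenzyme Q, by 1.74.

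Assembly factors outside the symbol rule had a median ethanol difference of -0.15, with 13 of 15 below 0 and 0 called (5 at an unadjusted p under 0.05). Over development 4 of these 15 fell and 0 rose, beside 19.8% and 17.6% of all probe sets. Among the falls were those of the ATP synthase factors atpaf1, by 0.85 (adjusted p = 0.00261), and atpaf2, by 0.98 (adjusted p = 0.00157). Of 9 genes of mitochondrial biogenesis and mitochondrial DNA expression, 6 lay below 0 with ethanol, with a median of -0.11 and 0 called (1 at an unadjusted p under 0.05). Over development 4 of the 9 fell and 1 rose, beside the same shares of all probe sets. Among the falls was that of tfam, which packages mitochondrial DNA, by 0.68 (adjusted p = 0.0225). The rise was that of nrf1, a transcription factor of respiratory genes, by 0.62 (adjusted p = 0.0447). The 4 kept genes for carriers and channels had medians of 0.04 with ethanol and 0.07 over development, with 0 called (0 at an unadjusted p under 0.05).

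Glycolysis and the cytosolic ribosome were read as a contrast. Of 20 glycolytic genes, 17 lay above 0 with ethanol, with a median of 0.21 and 0 called (6 at an unadjusted p under 0.05, beside 23.9% of all probe sets), and the median was 0.08 with arrays centred on their median. Over development 13 of the 20 rose and 1 fell, beside 17.6% and 19.8% of all probe sets, with a median of 0.70. Among those that rose were eno1a, an enolase, by 1.66, ldha, a lactate dehydrogenase, by 1.65, and pgk1, a phosphoglycerate kinase, by 1.498. The 70 cytosolic ribosomal genes had a median ethanol difference of 0.07, and centring arrays on their median made it -0.07. Their stage medians were -0.01, -0.20, 0.33 and 0.18 from 27 to 48 hpf, so the 0.07 joins stages of opposite sign. At 30 hpf they were no contrast, as the respiratory chain median there was -0.24. Over development the median of the 70 genes was 0.30, and quantile normalization made it -0.02. Differences between these lists and the respiratory chain were not tested.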

How the data were processed

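Total RNA from dissected zebrafish eyes was labelled with biotin and hybridized to Affymetrix arrays, per the labels' protocols. The deposited files hold MAS5 signals, which are linear array intensities, and MAS5 is named in the submitters' processing notes without a version. Each array had a mean signal of about 125 once 2% was trimmed from both ends, array medians ran from 36.3 to 44.7, and values were used as deposited. Their number, 1 array for each of 9 samples, limits the precision, and no detection calls were used.

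Of 15617 probe sets, 115 control probe sets were left out. Platform annotation gave 1 gene symbol to 10802, several to 135 and none to 4680, and 10718 symbols were looked up by gene identifier in RefSeq. The 90 genes had 98 probe sets, and 2 more were left out for several symbols. Values became log2(signal + 5), and the upper 60% by mean was kept (9301 probe sets, mean signal at least 22.7).

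limma 3.58.1 (R 4.3.3) was fitted over all kept probe sets, with Benjamini-Hochberg adjustment at 0.05, and its use was tested on simulated data. Ethanol was fitted on 8 arrays with stage as a block, development as the slope on hpf with an ethanol term (9 arrays), and the interaction as their product. Alternatives were quantile normalization, median centring, other pseudocounts and filters, the treatment characteristic as the label, the 27 and 48 hpf pairs alone, arrays without ethanol alone and each stage left out.

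Genes were named by rule: per complex the 2 brightest, the 3 with the largest ethanol differences, the 3 with the largest development changes, and a list of paralogs. The members, gene lists and this rule were chosen with earlier results of these data known, so the lists are descriptions and got no test. The list of mitochondrially encoded subunits matched no symbol by its prefix, and COX1 is given in its place. Sequences and genome coordinates were not used here.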

Additional observations from a re-analysis of the deposited data

Results flagged for a closer look

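In 3 of 57 sets of 4 stage values, 1 stage lay far from the other 3, by a gap that passed Dixon's 95% critical value for 4 values, and chance gives about 5% of sets. The median of the 3 complex II assembly factors was -1.13 at 48 hpf, against -0.12, -0.24 and -0.13 at the earlier stages. For cox10 the 36 hpf difference was -0.55, against -0.26, -0.27 and -0.26 at the others. For uqcrc2b the 48 hpf difference was -0.57, against -0.33, -0.37 and -0.34. The cause was not tested.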

How the results depend on the processing

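Each stage and treatment had 1 array, so a stage value has no error of its own and the 4 stages stand in for replicates. Dim genes such as sdhaf3 and cox4i1l rest on signals near the noise of MAS5. With arrays centred on their median, 5 genes were called for ethanol, beside 5.48% of all probe sets, and 29 for development, beside 42%, and the medians of the 89 genes were -0.34 and -0.26. Centring subtracts a constant from each array, so all estimates of a fit shifted down by the same amount. The median of the 89 genes less that of all probe sets was -0.25 for ethanol and -0.07 for development, with centring and without it. Under the treatment characteristic 6 genes were called for development, beside 27.8% of all probe sets, and in arrays without ethanol alone 5 were, beside 21.8%. Leaving out each stage gave 5 to 12 development calls (5 without 27 hpf, beside 26.1% of all probe sets, and 5 without 48 hpf, beside 14%), median ethanol differences of -0.24 to -0.15 and median development changes of -0.20 to -0.06, with 0 calls for ethanol and for the interaction each time. Without 48 hpf 54 of the 89 interaction estimates were below 0, in place of 75.

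Among single genes, ethanol differences kept their sign and side of the threshold in 510 of the values recomputed, and 4 became calls under median centring. The rest changed sign, all of them uncalled. Under the treatment characteristic these were cox10 (0.0073), cox17 (0.066), cox4i2 (-0.067), cox5ab (0.00051), cox8a (0.0496), ndufa10 (0.032), ndufab1a (0.037), ndufaf4 (-0.15), sdhdb (0.064) and uqcrh (0.025). After quantile normalization they were atp5mc3a (0.045) and ndufa4a (0.0092), with median centring ndufaf4 (-0.13), and on the 27 and 48 hpf pairs alone cox8a (0.0041) and ndufaf4 (-0.057). Leaving out each stage gave ranges across 0 of -0.075 to 0.0062 for atp5f1b, -0.051 to 0.041 for atp5mc3a, -0.092 to 0.023 for cox5ba, -0.21 to 0.029 for cox6b1, -0.096 to 0.099 for ndufaf4 and -0.37 to 0.15 for sdhaf4.

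Development calls of atp5if1a held in 13 of 13 alternatives, those of cox4i1l and cox4i2 in 12 of 12, cox6b1 in 12 of 13, sdhaf2 in 11 of 13, ndufaf4 in 10 of 13 and sdhaf3 in 9 of 12. Those of uqcrfs1, cox5ab, ndufab1b, sdha and sdhdb held in 7, 6, 5, 4 and 4 of 13.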
